A study of Mus musculus with 6 samples.

Results

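Integrins, cadherins and the adhesion molecules of the immunoglobulin superfamily were read across adult mouse neural stem cell cultures with and without extra SETD4. The members were the protein-coding genes whose symbols belong to the integrin alpha (Itga) and beta (Itgb) genes, the numbered cadherins (Cdh) and Vcam1, the Icam genes, Ncam1, Ncam2, L1cam, Chl1, Nrcam and Alcam. This gave 60 genes of the 55802 in the deposited tables: 18 integrin alpha genes, 8 integrin beta genes, 23 cadherins and 11 immunoglobulin adhesion genes.

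RNA was sequenced from primary cells dissociated from the subventricular zone (SVZ), the wall of the lateral ventricle where neurons are born in adult life, of adult C57BL/6 mice. The cells, kept in Neuralbasal medium with 2% B27 supplement, received adenovirus that expresses SETD4 plus green fluorescent protein (treatment ADV-SETD4-GFP, genotype labelled SETD4 overexpression; SETD4 OE, n = 3) or the fluorescent protein alone (treatment ADV-GFP, genotype labelled WT; control, n = 3). The labels give 24 h with the infection. Both groups therefore carried virus and fluorescent protein, the cells were not a clonal line, and neither the share of infected cells nor whether the libraries came from separate mice or cultures is given in the sources used here, so p-values measure the spread between these libraries, which may be technical. SETD4 belongs to the SET domain methyltransferases, and the comparison asks how raising it changes the transcriptome of these cells.

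Integrins are pairs of an alpha and a beta chain that bind matrix proteins outside the cell and talin and kindlin inside it. Classical cadherins bind cadherins on the next cell and are tied to actin by catenins, while the immunoglobulin adhesion molecules bind each other, integrins or other surface proteins. In the SVZ, N-cadherin and VCAM1 hold stem cells in place beside the ventricle, and laminin-binding integrins contact the laminin of vessels.

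Values were FPKM, in which reads are divided by the length of the gene and the size of the library, so that levels of different genes may be set side by side. The libraries held 14924273 to 16045138 reads in SETD4 OE and 16007182 to 18078717 in the controls. Setd4 had 296, 346 and 333 FPKM in SETD4 OE, against 0.952, 0.972 and 1.53 FPKM in the controls; these values do not tell the virus's transcripts from the cell's own. Control replicate 1 stood apart in its mitochondrial reads, at 3.78% against 2.45% in each other control and 3.52% to 3.73% in SETD4 OE. Testing used limma, for genes averaging 1 FPKM or more, on log2(FPKM + 1), a scale that understates the change of low genes, and a gene was called changed at an adjusted p under 0.05. Of all 12994 genes tested, 60.0% were called, 26.0% higher and 33.9% lower in SETD4 OE. Upper-quartile scaling over the tested genes moved that split to 4405 higher and 3259 lower, against 3384 and 4406, and the median log2 fold change of all genes from -0.06 to 0.07. This is 1 of 3 definitions of that scaling that were tried, and the first of them left 3484 higher and 4263 lower. Of the planned scalings, equal-sums scaling gave 3887 higher and 3766 lower, quantile normalization 3723 and 3769, and median-of-ratios scaling 3267 and 4597.

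Of the 60 adhesion genes 27 reached 1 FPKM, and in each of these both groups averaged above 1 FPKM. Of the 27, 10 rose, 14 fell and 3 were not called. The median log2 fold change of the 27 was -0.19 against -0.06 for all genes tested. It moved with the scaling, to -0.02 against -0.002 after quantile normalization. Upper-quartile scaling over the tested genes gave -0.04 against 0.07. The 24 called genes are 88.9% of those tested. Most were well expressed, and among all genes averaging 5 FPKM or more 65.2% were called, as were 17 of the 18 adhesion genes above that level. The SETD4 OE and control libraries did not overlap for 24 of the 27, against 66.0% of all genes tested. Without control replicate 1 the counts were 11 higher and 14 lower, against a background of 60.4%. The remaining 33 members were under 1 FPKM and are described after the tested ones.

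**Figure D1:**
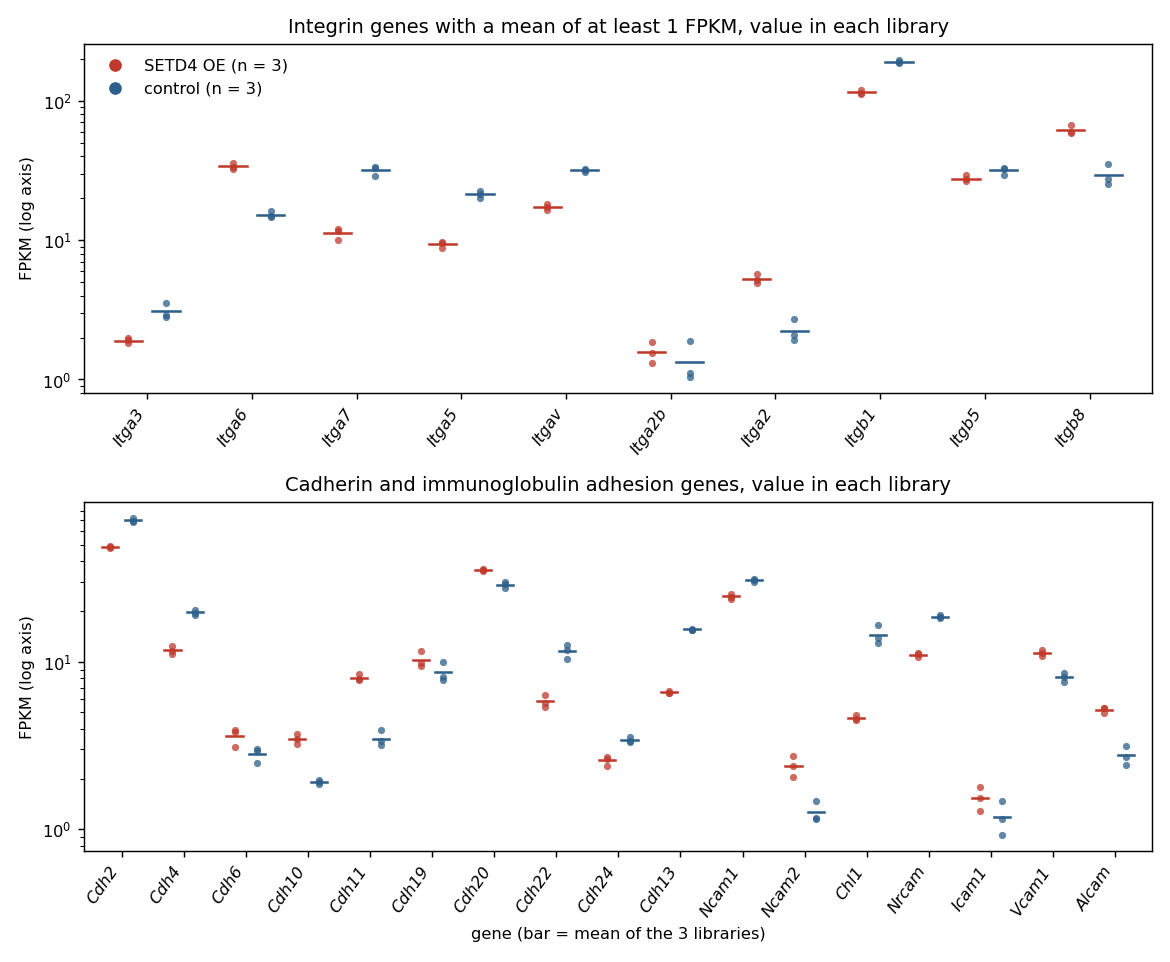
FPKM on a log axis of the 27 tested adhesion genes, with a point for each library, SETD4 OE left of control, and a bar at the mean of 3 libraries. Itgb1 is the most abundant in both groups, at means of 115 FPKM in SETD4 OE and 192 FPKM in the controls, and Itga6 and Itga7 change places.

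**Figure D2:**
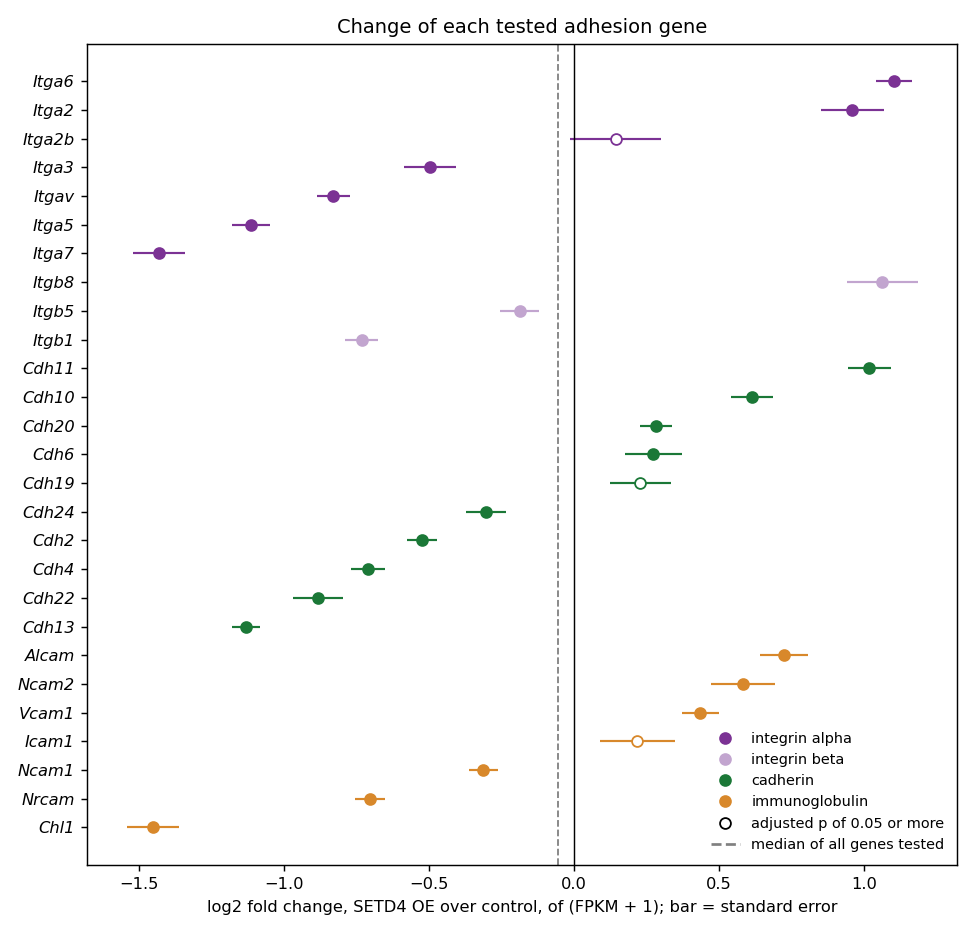
Log2 fold change of each tested adhesion gene, SETD4 OE over control on the log2(FPKM + 1) scale, with its standard error; open points were not called and the dashed line is the median of all genes tested. Values run from -1.45 for Chl1 to 1.10 for Itga6.

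Of the integrin genes tested, 2 alpha genes rose, 4 fell and 1 was not called, and 1 beta gene rose and 2 fell, as the plots of library values and of fold changes show. The sequences before 4 of their start sites are printed because these genes include partners, such as Itgav and Itgb8, and moved both ways. Itga5, Itgav and Itgb1 fell and Itgb8 rose. These 4 were picked after their values were seen, among members with a window in the table, which Itga6 and Itga7 lack. Each run is the 250 bases before the annotated start, from RefSeq on GRCm38.p6 (an earlier build than the mm39 of the expression tables), 5′ to 3′ on the gene's strand; capitals mark the GC box GGGCGG and the E-box CACCTG on either strand.
Itga5 (chr15:103366792-103367041, minus strand): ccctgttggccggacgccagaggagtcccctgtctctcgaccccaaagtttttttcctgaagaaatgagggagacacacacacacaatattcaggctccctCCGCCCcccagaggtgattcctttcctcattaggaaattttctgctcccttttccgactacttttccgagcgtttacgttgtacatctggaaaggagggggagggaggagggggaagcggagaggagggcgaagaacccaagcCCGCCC
Itgav (chr2:83724147-83724396, plus strand): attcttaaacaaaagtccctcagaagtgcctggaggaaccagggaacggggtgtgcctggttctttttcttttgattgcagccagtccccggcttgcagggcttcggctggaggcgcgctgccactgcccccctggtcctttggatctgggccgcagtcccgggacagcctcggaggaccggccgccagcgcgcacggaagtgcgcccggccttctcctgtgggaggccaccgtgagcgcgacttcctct
Itgb1 (chr8:128685404-128685653, plus strand): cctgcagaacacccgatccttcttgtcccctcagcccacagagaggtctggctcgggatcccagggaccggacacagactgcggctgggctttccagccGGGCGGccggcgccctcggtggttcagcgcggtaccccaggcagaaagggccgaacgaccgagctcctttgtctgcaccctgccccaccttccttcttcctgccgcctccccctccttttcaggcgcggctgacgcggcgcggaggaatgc
Itgb8 (chr12:119238277-119238526, minus strand): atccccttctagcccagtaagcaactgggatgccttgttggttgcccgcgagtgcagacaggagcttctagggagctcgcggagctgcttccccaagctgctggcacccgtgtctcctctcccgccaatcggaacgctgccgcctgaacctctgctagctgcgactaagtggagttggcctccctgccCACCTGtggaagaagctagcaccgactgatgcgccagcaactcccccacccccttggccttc

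The Itga5 run holds 2 GC boxes, the Itgb1 run 1, and the Itgb8 run 1 E-box; the Itgav run holds none of the motifs. GC content was 55.6% in the Itga5 run, 64.4% for Itgav, 68% for Itgb1 and 62.4% for Itgb8. Of all 32851 such windows, 32.7% hold GGGCGG, 17.2% hold CACCTG and 6.75% hold the AP-1 motif TGANTCA, each on either strand. Windows were found for 39 of the 60 adhesion genes, 44 in all, of which 20 hold a GC box, 11 the E-box and 1 the AP-1 motif. These matches describe the letters of the windows only.

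Among the alpha chains that bind laminin, Itga6 and Itga7 went opposite ways. Itga6 (mm39 chr2:71575960-71688760), a chain long used to mark SVZ stem cells, had 33.3, 35.7 and 32.5 FPKM in SETD4 OE, against 16.1, 14.6 and 14.9 FPKM in the controls. Every SETD4 OE library was above every control (limma log2 fold change 1.10 ± 0.06 SE, adjusted p = 1.18e-05). Itga7 (mm39 chr10:128769687-128794151), best known from muscle, where its product joins the fibre to laminin, had 11.5, 10.04 and 11.97 FPKM in SETD4 OE, against 28.7, 33.8 and 33.0 FPKM in the controls. It was lower in every SETD4 OE library (limma log2 fold change -1.43 ± 0.09 SE, adjusted p = 1.71e-05). Itga3, whose product also binds laminin, fell to 1.90 ± 0.0821 FPKM in SETD4 OE, against 3.11 ± 0.400 FPKM in the controls (SD, n = 3 each; adjusted p = 0.00259, limma).

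The sum of the 3 laminin-binding chains was 46.9 ± 0.594 FPKM in SETD4 OE and 50.2 ± 2.19 FPKM in the controls, and the groups' order turned with the scaling: the ratio of SETD4 OE to control was 0.936 as deposited and 1.04 after upper-quartile scaling over the tested genes. Its make-up, which a single factor per library cannot move, differed. Itga6 formed 72.1 ± 2.68% of it in SETD4 OE and 30.5 ± 2.96% in the controls, and Itga7 23.8 ± 2.46% in SETD4 OE and 63.4 ± 2.87% in the controls. The ratio of Itga6 to Itga7 was 2.88, 3.56 and 2.71 in the SETD4 OE libraries and 0.563, 0.434 and 0.452 in the controls. The classes and ratio pairs here and below were drawn up after the values were seen and are descriptions, with no test of their own.

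Of the alpha chains that recognise the RGD sequence of fibronectin and vitronectin, Itga5 and Itgav fell. Itga5 (mm39 chr15:103252713-103275190), the fibronectin receptor chain, had 9.54, 8.77 and 9.69 FPKM in SETD4 OE, against 20.01, 21.4 and 22.6 FPKM in the controls, without overlap (log2 fold change -1.11, SE 0.07, adjusted p = 1.45e-05, limma). Itgav (mm39 chr2:83554741-83637260), which pairs with several beta chains, had 17.4, 18.2 and 16.6 FPKM in SETD4 OE, against 32.7, 30.7 and 31.7 FPKM in the controls. No library of one group reached the other (limma log2 fold change -0.83 ± 0.06 SE, adjusted p = 2.63e-05). Itga2b, the platelet chain, overlapped between groups at 1.57 ± 0.275 FPKM in SETD4 OE and 1.35 ± 0.462 FPKM in the controls and was not called (adjusted p = 0.457, limma). With Itga8, at 0.422 FPKM in SETD4 OE and 0.468 FPKM in the controls, the 4 RGD chains summed to 28.7 ± 0.601 FPKM in SETD4 OE and 54.9 ± 0.832 FPKM in the controls.

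Itga2, a collagen receptor chain, rose. It had 5.17, 5.68 and 4.96 FPKM in SETD4 OE, against 2.74, 1.90 and 2.07 FPKM in the controls, with control replicate 1 the highest of its group (limma log2 fold change 0.96 ± 0.11 SE, adjusted p = 2.57e-04). The other collagen chains, Itga1, Itga10 and Itga11, averaged under 1 FPKM in both groups.

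Of the beta chains 3 were tested. Itgb1 (mm39 chr8:129412135-129459681), the partner of most of the alpha chains above, had 112, 119 and 114 FPKM in SETD4 OE, against 197, 188 and 189.9 FPKM in the controls. It was lower in every SETD4 OE library (log2 fold change -0.73, SE 0.06, adjusted p = 4.63e-05, limma). Itgb8 (mm39 chr12:119121757-119202537), which with the product of Itgav activates latent TGF-beta, had 59.6, 67.1 and 58.6 FPKM in SETD4 OE, against 35.2, 25.2 and 27.4 FPKM in the controls. The groups did not overlap, although control replicate 1 was the highest control (log2 fold change 1.06, SE 0.12, adjusted p = 2.97e-04, limma).

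Itgb5, another partner of Itgav, had 27.4, 26.4 and 29.2 FPKM in SETD4 OE, against 29.3, 33.2 and 32.5 FPKM in the controls, so that SETD4 OE replicate 3 and control replicate 1 nearly met. It was just called (limma log2 fold change -0.19 ± 0.07 SE, adjusted p = 0.0472). The limma call was lost without SETD4 OE replicate 1 (adjusted p = 0.118), SETD4 OE replicate 2 (0.133), control replicate 2 (0.132) or control replicate 3 (0.143), and the log2 fold change was -0.02 after quantile normalization. It was lost in 13 of 18 alternative settings in all. Of the summed beta chains, Itgb1 was 56.0 ± 0.257% in SETD4 OE and 75.6 ± 0.476% in the controls, and Itgb8 30.02 ± 1.29% in SETD4 OE and 11.5 ± 1.67% in the controls. Itgb8 was 3.42, 3.68 and 3.53 times Itgav in the SETD4 OE libraries, against 1.08, 0.821 and 0.865 times in the controls.

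**Figure D3:**
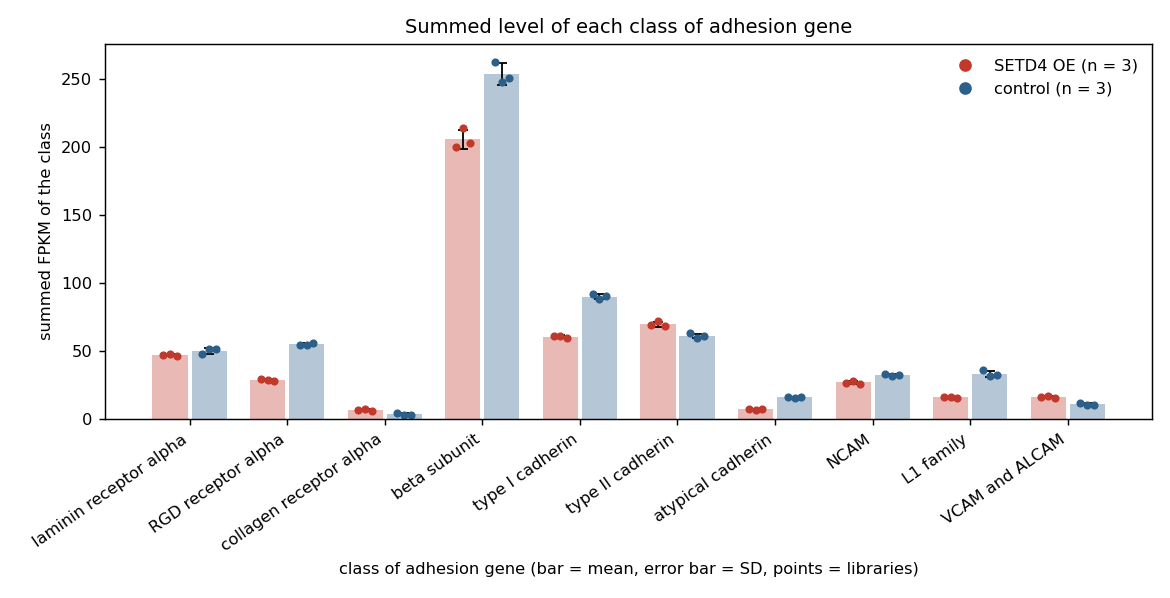
Summed FPKM of each class of adhesion gene, with bars at the mean, error bars of 1 SD, and a point per library, SETD4 OE left of control. RGD chains, beta chains, type I cadherins, atypical cadherins, the NCAM pair and the L1 family are lower in SETD4 OE. Collagen receptor chains, type II cadherins and the pair of Vcam1 and Alcam are higher. The order of the laminin-binding chains turned with the scaling.

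Of 10 cadherins tested, 4 rose, 5 fell and 1 was not called (5 higher and 4 lower with upper-quartile scaling over the tested genes or over each library's genes above 0; 5 and 5 without control replicate 1). Both tested type I, or classical, cadherins fell, and all 4 that rose were type II. Cdh2, the N-cadherin by which SVZ stem cells attach to their neighbours, was the most abundant cadherin. It had 48.6, 49.0 and 47.6 FPKM in SETD4 OE, against 72.3, 68.2 and 69.5 FPKM in the controls, without overlap (log2 fold change -0.52, SE 0.05, adjusted p = 1.30e-04, limma). Cdh4, or R-cadherin, which can pair with N-cadherin, had 12.3, 11.6 and 11.1 FPKM in SETD4 OE, against 19.1, 19.7 and 20.5 FPKM in the controls (limma log2 fold change -0.71 ± 0.06 SE, adjusted p = 6.39e-05). The 5 type I cadherins summed to 60.5 ± 1.08 FPKM in SETD4 OE and 89.9 ± 1.84 FPKM in the controls.

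Cdh13, the T-cadherin, which is held by a lipid anchor and has no cytoplasmic tail, fell most among the cadherins. Its level (mm39 chr8:119010472-120051660) was 6.52, 6.50 and 6.73 FPKM in SETD4 OE, against 15.5, 15.5 and 15.8 FPKM in the controls. Libraries of a group differed little and the groups lay far apart (limma log2 fold change -1.13 ± 0.05 SE, adjusted p = 4.81e-06).

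The type II cadherins were mixed. Cdh11, also called OB-cadherin and found in mesenchyme and brain, rose most among the tested ones. It had 7.85, 8.43 and 7.91 FPKM in SETD4 OE, against 3.90, 3.36 and 3.19 FPKM in the controls (log2 fold change 1.02, SE 0.08, adjusted p = 3.68e-05, limma). Cdh10 had 3.45, 3.72 and 3.25 FPKM in SETD4 OE, against 1.93, 1.97 and 1.86 FPKM in the controls (log2 fold change 0.61, adjusted p = 3.29e-04, limma). Both genes were higher in every SETD4 OE library. Cdh20, the most abundant type II cadherin, rose less, with 35.2, 36.02 and 34.7 FPKM in SETD4 OE, against 30.01, 27.4 and 29.2 FPKM in the controls (log2 fold change 0.28, adjusted p = 0.00360, limma).

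Cdh22, a type II cadherin of brain, went the other way, with 5.71, 5.41 and 6.37 FPKM in SETD4 OE, against 10.4, 12.6 and 11.8 FPKM in the controls (log2 fold change -0.88, SE 0.09, adjusted p = 1.29e-04, limma). Cdh24 fell to 2.58 ± 0.166 FPKM in SETD4 OE, against 3.42 ± 0.118 FPKM in the controls (adjusted p = 0.00759, limma), a call lost with upper-quartile scaling over the tested genes (adjusted p = 0.0561) and with limma-voom on all genes of at least 10 reads (adjusted p = 0.0544). Cdh6 was at 3.91, 3.82 and 3.10 FPKM in SETD4 OE, against 3.00, 2.50 and 2.92 FPKM in the controls, close to overlap. Its call (log2 fold change 0.27, adjusted p = 0.0431, limma) was lost without SETD4 OE replicate 1 (adjusted p = 0.136), SETD4 OE replicate 2 (0.120), control replicate 2 (0.126) or control replicate 3 (0.0768).

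Cdh19 overlapped between the groups, with 9.89, 11.6 and 9.44 FPKM in SETD4 OE and 9.96, 8.15 and 7.84 FPKM in the controls. It was not called (adjusted p = 0.0995, limma) but passed in limma without control replicate 1 (adjusted p = 0.0211) and with 4 scalings and both limma-voom fits, and a gene of 1.01 FPKM without a protein product lies on the same strand within its span. The 13 type II cadherins summed to 69.7 ± 1.88 FPKM in SETD4 OE and 61.2 ± 1.61 FPKM in the controls, so that they stood above the type I sum in SETD4 OE and below it in the controls.

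Among the immunoglobulin adhesion genes 3 rose, 3 fell and 1 was not called. Chl1 (mm39 chr6:103487547-103727172), the close homolog of L1 that acts in neurite growth and migration, fell about as far as Itga7. It had 4.51, 4.84 and 4.55 FPKM in SETD4 OE, against 16.5, 13.02 and 13.8 FPKM in the controls, and all SETD4 OE libraries lay below all controls (log2 fold change -1.45, SE 0.09, adjusted p = 1.70e-05, limma). Its relative Nrcam (mm39 chr12:44375668-44648747), which gathers sodium channels at nodes of Ranvier, had 11.2, 11.2 and 10.6 FPKM in SETD4 OE, against 19.1, 18.4 and 18.2 FPKM in the controls (log2 fold change -0.70, SE 0.05, adjusted p = 3.36e-05, limma). With L1cam, the L1 family summed to 15.9 ± 0.503 FPKM in SETD4 OE and 33.1 ± 2.23 FPKM in the controls.

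The NCAM genes parted. Ncam1, the carrier of polysialic acid on migrating neuroblasts, had 24.4, 25.5 and 23.9 FPKM in SETD4 OE, against 31.3, 30.1 and 30.8 FPKM in the controls (log2 fold change -0.31, SE 0.05, adjusted p = 0.00163, limma; adjusted p = 0.0994 after quantile normalization). Ncam2, its relative of the olfactory system, rose, with 2.39, 2.75 and 2.06 FPKM in SETD4 OE, against 1.48, 1.17 and 1.15 FPKM in the controls (log2 fold change 0.58, SE 0.11, adjusted p = 0.00309, limma). Neither gene's groups overlapped, and Ncam1 was the more abundant in every library.

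Vcam1, whose product sits on SVZ stem cells and binds integrins carrying the alpha4 chain, had 11.2, 11.7 and 10.8 FPKM in SETD4 OE, against 8.61, 7.54 and 8.08 FPKM in the controls (log2 fold change 0.44, SE 0.06, adjusted p = 9.54e-04, limma). Alcam, the ligand of the lymphocyte receptor CD6, had 5.28, 5.34 and 4.96 FPKM in SETD4 OE, against 3.13, 2.72 and 2.44 FPKM in the controls (log2 fold change 0.72, SE 0.08, adjusted p = 2.85e-04, limma). Both were higher in every SETD4 OE library. Icam1, a ligand of leukocyte integrins, overlapped between groups, at 1.54 ± 0.253 FPKM in SETD4 OE and 1.19 ± 0.277 FPKM in the controls, and was not called (adjusted p = 0.186, limma).

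The 33 members under 1 FPKM included 1 with no read in any library, Icam4, which allows up to 3 reads per library. Another 7 had fewer than 10 reads over the 6 libraries, among them the leukocyte chain genes Itgad and Itgam (CD11b, of microglia) with 2 reads each in SETD4 OE and none in the controls. Itgal had 20 reads over SETD4 OE and 19 over the controls, and Itgax 11 over SETD4 OE and 10 over the controls. In 10 of the 33, or 30.3%, the groups did not overlap (7 higher, 3 lower in SETD4 OE). The share was 17.7% of all genes above 0 and under 1 FPKM, a set that leaves out genes at 0 such as Icam4.

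**Figure D4:**
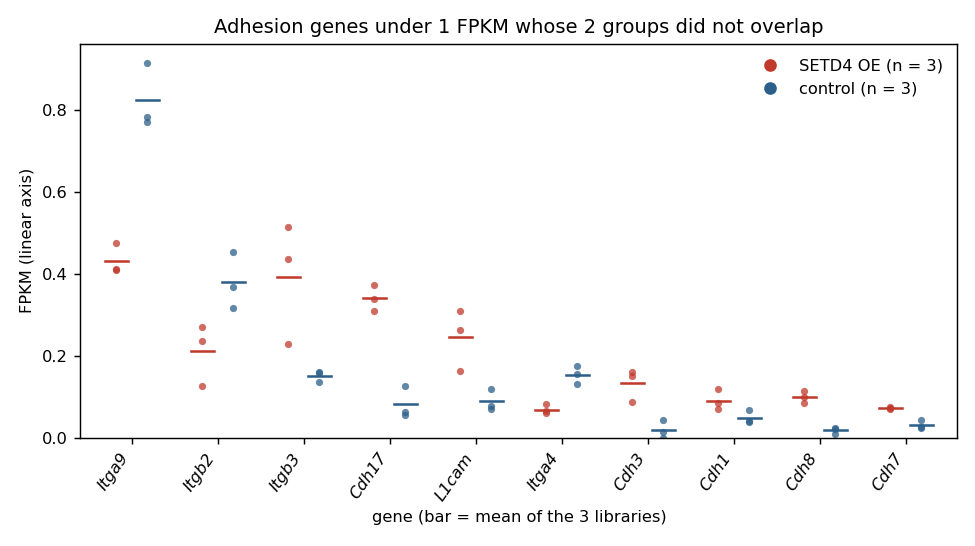
FPKM on a linear axis of the 10 adhesion genes under 1 FPKM whose SETD4 OE and control libraries did not overlap, with a point per library and a bar at the mean. Itga9 is the highest, at 0.433 FPKM in SETD4 OE and 0.824 FPKM in the controls.

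For 25 of these low members with at least 10 reads in all, limma-voom on the recovered reads called 7 higher and 2 lower in SETD4 OE, where 20.3% and 3.42% of the 7992 genes of this kind were called. This alternative was added with the data known, and its median log2 fold change over all genes it tested was 0.15. Cdh17, the liver-intestine cadherin, had 73 reads over SETD4 OE and 18 over the controls (adjusted p = 0.00123, limma-voom). L1cam, the founding L1 adhesion molecule of axons, had 86 reads over SETD4 OE and 32 over the controls (adjusted p = 0.00706, limma-voom). Itgb3, another partner of Itgav, had 112 reads over SETD4 OE and 44 over the controls (adjusted p = 0.00787, limma-voom).

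Cdh8 had 37 reads over SETD4 OE and 7 over the controls, Cdh3 28 over SETD4 OE and 4 over the controls, and Cdh7 35 over SETD4 OE and 15 over the controls, and limma-voom called each higher. It also called Itga1 higher, although its groups overlapped and Pelo, at 3.03 FPKM, lies within its span on the same strand. Those called lower were Itga9, whose product binds tenascin, with 160 reads over SETD4 OE and 315 over the controls, and Itga4, the VCAM1 receptor chain, with 46 over SETD4 OE and 107 over the controls. Itga9 also spans a pseudogene of 4.18 FPKM on the other strand, and the strand setting of the counting is not given. Cdh5, the endothelial cadherin, had 68 reads over SETD4 OE and 65 over the controls, and Cdh1, or E-cadherin, 20 over SETD4 OE and 11 over the controls. Neither was called.

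Marker lists of the cell types in such cultures moved between the groups as well, and in bulk RNA fewer cells of a type and less RNA per cell cannot be told apart. All 12 neural stem cell and progenitor markers were tested (9 higher, 3 lower), and their sum was 3411.5 to 3574.6 FPKM in SETD4 OE and 2765 to 2982 FPKM in the controls. Gfap carried that difference: without it the other 11 summed to 2065 to 2143 FPKM in SETD4 OE and 2442 to 2653 FPKM in the controls, the other way round. Of 10 astrocyte markers, 9 were tested, 7 rose and 1 fell, with sums of 872 to 880.04 FPKM in SETD4 OE and 409.75 to 434 FPKM in the controls. Of 9 ependymal markers, 7 were tested and all 7 rose, with sums of 59.8 to 77.6 FPKM in SETD4 OE and 24.6 to 28.5 FPKM in the controls. Of 14 oligodendrocyte lineage markers, 13 were tested, 11 rose and 2 fell, with sums of 806 to 868 FPKM in SETD4 OE and 1196 to 1334 FPKM in the controls. Olig1 and Olig2 set the direction of that sum, and the remaining 12 came to 125 to 133 FPKM in SETD4 OE and 55.1 to 57.6 FPKM in the controls. Of 14 markers of neuroblasts and neurons, 8 were tested, 2 rose and 4 fell, with sums of 24.8 to 28.4 FPKM in SETD4 OE and 33.1 to 36.1 FPKM in the controls. Without Nefl these sums overlapped, at 24.2 to 27.7 FPKM in SETD4 OE and 25.8 to 27.96 FPKM in the controls. The genes left out of these sums, here and in the lists that follow, were named after their values were seen, as those with the largest difference in mean. The part of these shifts in the changes of integrins, cadherins and immunoglobulin adhesion genes was not tested.

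Vascular and immune markers were low. Of 14 endothelial markers only 1 was tested, and it fell; their sum was 2.43 to 2.57 FPKM in SETD4 OE and 4.78 to 5.01 FPKM in the controls, with Cldn5, Tie1 and Sox17 at 0 in every library. The tested gene was Flt1, and the other 13 summed to 1.87 to 1.89 FPKM in SETD4 OE and 1.41 to 1.55 FPKM in the controls. Of 16 microglia and macrophage markers 2 were tested, 1 higher and 1 lower, and the sum was 19.0 to 19.9 FPKM in SETD4 OE and 16.5 to 19.7 FPKM in the controls. Of 12 markers of pericytes, smooth muscle and fibroblasts, 4 were tested, 3 rose and 1 fell, and they added up to 23.3 to 27.015 FPKM in SETD4 OE and 33.2 to 38.1 FPKM in the controls. The one that fell, Acta2, set that order, and the other 11 added up to 13.6 to 14.3 FPKM in SETD4 OE and 4.98 to 5.06 FPKM in the controls. The part of these lists in the adhesion changes was not tested.

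The genes of integrin activation and the adhesion plaque join integrins to the cytoskeleton. Of 25 tested, 13 fell and 6 rose, where 33.9% of all genes tested fell and 26.0% rose. The list's median log2 fold change was -0.22 against -0.06 for all genes (10 fell and 7 rose with upper-quartile scaling over the tested genes). Actn4, an alpha-actinin that bundles actin at adhesions, had 23.1, 22.5 and 23.2 FPKM in SETD4 OE, against 49.4, 58.8 and 54.2 FPKM in the controls (log2 fold change -1.20, adjusted p = 1.43e-05, limma). Parvb, a parvin that ties integrin-linked kinase to actin, fell to 5.25 ± 0.179 FPKM in SETD4 OE, against 11.6 ± 1.10 FPKM in the controls. Pxn, the scaffold paxillin, rose instead, to 11.2 ± 1.31 FPKM in SETD4 OE, against 6.67 ± 0.309 FPKM in the controls (log2 fold change 0.66, adjusted p = 5.71e-04, limma).

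Of 20 matrix ligands of integrins tested, 10 rose and 8 fell, 90% against 60.0% of all genes tested, with 0.25 as the median log2 fold change. The largest changes among called ligands averaging 5 FPKM or more were the falls of Spp1, Tnc and Npnt. Tnc, which encodes tenascin C, a matrix protein of the SVZ, had 29.8, 28.8 and 29.4 FPKM in SETD4 OE, against 63.1, 69.3 and 70.2 FPKM in the controls (log2 fold change -1.17, adjusted p = 8.00e-06, limma). Spp1, or osteopontin, an RGD ligand, fell to 8.57 ± 1.19 FPKM in SETD4 OE, against 21.3 ± 1.45 FPKM in the controls, and Npnt, or nephronectin, to 4.38 ± 0.101 FPKM in SETD4 OE, against 10.1 ± 0.0903 FPKM in the controls.

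Of 13 tested catenins and other cadherin partners 5 rose, 1 fell and 7 were not called, so that 46.2% were called against 60.0% of all genes tested (9 rose and 1 fell with upper-quartile scaling over the tested genes). The list's median log2 fold change was 0.10, and 0.25 with that scaling. Beta-catenin, Ctnnb1, was at 173, 181 and 185 FPKM in SETD4 OE and 169.9, 166 and 166 FPKM in the controls. Every SETD4 OE library was above every control, but the gene was not called (log2 fold change 0.10, adjusted p = 0.168, limma). It was named after its values were seen, and its calls under the other scalings are not given here. Ctnna2 changed most of the called partners, to 4.18 ± 0.155 FPKM in SETD4 OE, against 0.955 ± 0.187 FPKM in the controls (log2 fold change 1.41, adjusted p = 2.12e-05, limma). This gene averaged under 5 FPKM and was named after its values were seen. Among called partners averaging 5 FPKM or more, Ctnnd2, Jup and Ctnnbip1 changed most. Ctnnd2, a catenin of neural cells, rose to 28.2 ± 0.294 FPKM in SETD4 OE, against 19.8 ± 0.182 FPKM in the controls, and Jup, or plakoglobin, to 8.42 ± 0.183 FPKM in SETD4 OE, against 6.59 ± 0.257 FPKM in the controls. Ctnnbip1, which blocks beta-catenin from binding TCF, fell to 19.2 ± 2.32 FPKM in SETD4 OE, against 28.1 ± 3.47 FPKM in the controls. Of the 8 genes listed as cadherin repressors of the mesenchymal transition, 3 were tested. Zeb2 alone was called, at 6.37 ± 0.536 FPKM in SETD4 OE and 5.17 ± 0.346 FPKM in the controls (log2 fold change 0.26, adjusted p = 0.0229, limma). After upper-quartile, equal-sums or quantile scaling, limma called all 3 higher. The part of these repressors in the changes of the cadherins above was not tested.

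**Figure D5:**
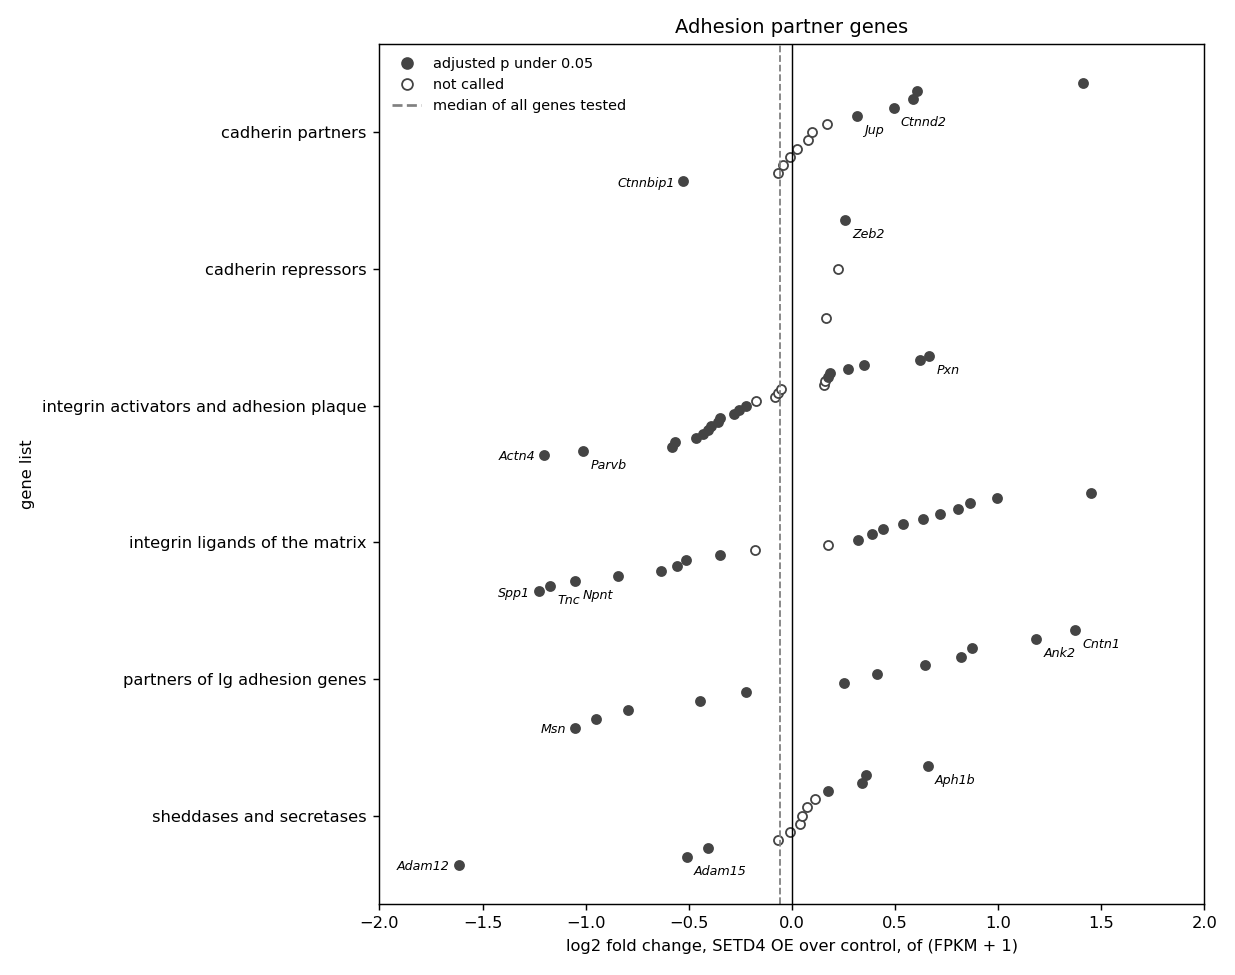
Log2 fold change of each tested gene in 6 lists of adhesion partners, SETD4 OE over control on the log2(FPKM + 1) scale; filled points were called and labels mark the genes named in the text by size of change, and Ctnnb1 is not labelled. Genes of the adhesion plaque lie mostly below 0 (13 lower, 6 higher) and matrix ligands lie on both sides.

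All 12 tested partners of the immunoglobulin adhesion genes changed, where 60.0% of all genes tested did. Of the 12, 7 rose and 5 fell, and the list's median log2 fold change was 0.33 (7 higher, 4 lower after equal-sums, quantile or, over the tested genes, upper-quartile scaling). Cntn1, a contactin that binds L1-type molecules, had 20.9, 21.5 and 19.8 FPKM in SETD4 OE, against 7.89, 6.89 and 7.39 FPKM in the controls (log2 fold change 1.37, adjusted p = 6.32e-06, limma). Ank2, an ankyrin that anchors such molecules to spectrin, rose to 33.7 ± 1.22 FPKM in SETD4 OE, against 14.3 ± 0.874 FPKM in the controls, and Msn, which encodes the actin linker moesin, fell to 65.8 ± 4.06 FPKM in SETD4 OE, against 137 ± 4.46 FPKM in the controls. Of 13 tested sheddases and secretases, enzymes that cut cadherins and other surface proteins, 4 rose and 3 fell, 53.8% against 60.0% of all genes tested (7 higher, 3 lower after upper-quartile scaling over the tested genes). Adam12 fell to 3.18 ± 0.112 FPKM in SETD4 OE, against 11.8 ± 0.534 FPKM in the controls (log2 fold change -1.62, adjusted p = 2.60e-06, limma), and Adam15 to 9.90 ± 0.542 FPKM in SETD4 OE, against 14.5 ± 0.878 FPKM in the controls. Aph1b, a gamma-secretase subunit gene, rose to 7.76 ± 0.125 FPKM in SETD4 OE, against 4.56 ± 0.251 FPKM in the controls.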

How the data were processed

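The deposited values were FPKM for 6 libraries, in a table per group that also lists each gene's length, per the file headers. The submitters' processing notes name HISAT2 2.0.5 and the build mm39; how reads were counted, with which annotation and strand setting, is not given in the sources used here. Every value came out within 0.05 reads of a whole read once gene length and library size were taken out, which gave reads per gene. Recovered totals were 3.69% to 5.04% below the library size behind the FPKM in SETD4 OE and 0.634% to 2.75% above it in the controls. Libraries of a group differed beyond sampling noise (chi-square per degree of freedom 3.89 to 16.3) and each counted as a replicate.

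Of 55802 genes, the 12994 averaging 1 FPKM or more were tested on log2(FPKM + 1) with limma 3.58.1 (R 4.3.3), a variance trend, two-sided, and Benjamini-Hochberg adjustment over all of them; the fit was tested on simulated data. The members, lists and tests were chosen with earlier results of these data known. Any member could be named, and of each partner list up to 3 called genes with the largest change and a mean of 5 FPKM or more. Ctnnb1 and Ctnna2 were named outside this rule. Alternatives were other filters, a pseudocount of 0.1, 6 scalings, a replicate block, limma-voom on recovered reads and leaving out each library. The upper-quartile scalings and both limma-voom fits were added after the data were seen. Promoter windows are RefSeq's, GRCm38.p6.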

Additional observations from a re-analysis of the deposited data

How the results depend on the processing

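Of the 27 tested adhesion genes, 22 kept their direction and their side of the threshold in each alternative that tested them, and no direction reversed. The exceptions were Itgb5, lost in 13 of 18 settings, Cdh6, lost in 8, Cdh24, lost in 3, Ncam1, lost in 1, and Cdh19, gained in 7. Leaving out each library in turn gave 6637 to 7874 called genes, 22 to 25 adhesion genes, 6 integrin alpha genes, 2 to 3 integrin beta genes, 8 to 10 cadherins, 6 immunoglobulin adhesion genes and 58 to 66 partner genes. With the replicate number as a block, 6941 genes and 22 adhesion genes were called. Deviations of same-numbered libraries from their group means correlated at -0.07, -0.23 and 0.08, and those of differently numbered libraries at -0.25 to 0.30. With 3 libraries per group these values cannot show whether the numbers pair the libraries, and the labels do not say. Upper-quartile scaling was defined in 3 ways after the data were seen. The first, over genes above 0 in any library, gave factors near 1 and was replaced for that reason, because earlier work on these data had shown a larger shift, before its calls were read; it was later put back. It gave 3484 genes higher and 4263 lower, close to the unscaled split, and 4 cadherins higher and 5 lower. The second, over the tested genes, gave 4405 higher and 3259 lower. The third, over each library's genes above 0, gave 4512 higher and 3187 lower, so the size of the upper-quartile shift depends on this definition. Equal-sums scaling and quantile normalization, both planned, also moved the split toward higher genes, to 3887 and 3766 and to 3723 and 3769. Median-of-ratios scaling, also planned, moved it the other way, to 3267 higher and 4597 lower. The planned edgeR count test was not run, since the deposited unit is FPKM; limma-voom on the same genes, added in its place, called 4082 higher and 3872 lower, and on genes of at least 10 reads 5632 higher and 4097 lower. Depth limits the 33 members under 1 FPKM, most of all the 8 with fewer than 10 reads.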
